A study of Mus musculus with 12 samples.

Results

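The 9 genes described here encode the chains of the T cell receptor complex that carry its signal and the kinases and adaptors that act directly at the receptor. They were picked out by name, as the genes with the symbols Cd3d, Cd3e, Cd3g, Cd247, Lck, Zap70, Lat, Lcp2 and Sit1. The list was drawn up with earlier results of these data known. All 9 were present among the 24062 genes with FPKM values (fragments per kilobase of transcript, scaled to the number of mapped reads), measured in spleen and brain of mice with and without Norad.

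A T cell recognises antigen through the alpha and beta chains of its receptor, which have almost no signalling tail of their own. The signal is passed on by the associated CD3 delta, epsilon and gamma chains (Cd3d, Cd3e, Cd3g) and by the zeta chain (Cd247), whose tails are phosphorylated by the Src family kinase Lck. The kinase Zap70 then docks on the phosphorylated tails and phosphorylates the membrane adaptor Lat and the cytosolic adaptor SLP-76 (Lcp2), which assemble the complex that leads to calcium release and Ras activation. Sit1 encodes a transmembrane adaptor of lymphocytes that dampens receptor signalling. In spleen these genes are expressed mainly by T cells, with Cd247, Zap70, Lat and Lcp2 also used by natural killer cells, and Lcp2 also by platelets, mast cells and other myeloid cells. The brain parenchyma normally holds few T cells.

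Norad is an abundant cytoplasmic long noncoding RNA that binds PUMILIO proteins, which repress mRNAs carrying PUMILIO response elements. The study asked what its loss does to the tissues of the mouse. Whole spleens and whole brains came from C57BL/6 males aged 10 weeks, 3 Norad+/+ and 3 Norad-/- mice per tissue, which gave 12 libraries of polyadenylated RNA, 1 per mouse and tissue. The Norad-/- mice lack the Norad locus in every cell, deleted with CRISPR/Cas9 in several independent lines, and the line of each mouse was not given in the sources used here. No sample record names the animal, so spleen and brain of the same number may or may not be from 1 mouse. These are whole tissues, in which more cells of a type and more RNA per cell cannot be told apart.

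Norad itself matched the labels, with 42.9 to 62.0 FPKM in the Norad+/+ spleens against at most 0.0173 in the Norad-/- spleens, and 206 to 635 against at most 0.0121 in brain. The estimated depth was 31.5 to 35.2 M (mega) reads per spleen library and 28.5 to 36.6 M per brain library. A few libraries stood apart. Norad+/+ spleen 3 held pancreas and liver transcripts, with a summed 321 FPKM over 7 markers against 3.18 to 9.51 in the other 5 spleens. Norad-/- spleen 3 held 912 FPKM of 11 red cell precursor markers, against 65.6 and 81.9 in the other Norad-/- spleens and 701 to 2309 in Norad+/+ spleen. In brain, Norad-/- library 3 held 1338 FPKM of 6 pituitary markers against at most 1.48 in the other 5 brains. The brain libraries otherwise carried the neuronal markers of their label, at a summed 1770 to 2231 FPKM, and the spleens carried B cell markers at 1852 to 2388 FPKM.

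The 3 CD3 genes lie together on chromosome 9, and the bases just before their starts are printed because the genes are neighbours that were all higher in Norad-/- spleen, beside the same stretch of Zap70, which differed most, and of Sit1, which had the lowest p. In GRCm38 with GENCODE M21 annotation, Cd3g (ENSMUSG00000002033, chr9:44969572-44980431, minus strand) and Cd3d (ENSMUSG00000032094, chr9:44981786-44987339, plus strand) are transcribed away from each other from starts 1355 bases apart, and the 3′ end of Cd3e (ENSMUSG00000032093, chr9:44998740-45009627, minus strand) lies 11401 bases from that of Cd3d. Each sequence is the 250 bases before the RefSeq start on GRCm38, read 5′ to 3′ in the direction of transcription, with capitals marking AGGAAG or its reverse complement CTTCCT, a core bound by ETS family factors. The windows are chr9:44980432-44980681 for Cd3g, chr9:44981536-44981785 for Cd3d, chr9:45009612-45009861 for Cd3e, chr1:36761548-36761797 for the first of the 3 Zap70 starts and chr4:43483710-43483959 for Sit1.
Cd3g: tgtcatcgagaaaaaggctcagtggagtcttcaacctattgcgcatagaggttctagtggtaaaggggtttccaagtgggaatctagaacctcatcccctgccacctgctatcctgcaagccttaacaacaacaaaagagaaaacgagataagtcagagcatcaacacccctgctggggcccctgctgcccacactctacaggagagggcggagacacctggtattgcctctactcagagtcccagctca
Cd3d: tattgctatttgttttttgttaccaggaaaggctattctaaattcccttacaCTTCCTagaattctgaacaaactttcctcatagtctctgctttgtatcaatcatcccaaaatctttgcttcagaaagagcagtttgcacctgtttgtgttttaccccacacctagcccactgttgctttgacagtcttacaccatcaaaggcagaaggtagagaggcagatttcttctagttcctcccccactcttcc
Cd3e: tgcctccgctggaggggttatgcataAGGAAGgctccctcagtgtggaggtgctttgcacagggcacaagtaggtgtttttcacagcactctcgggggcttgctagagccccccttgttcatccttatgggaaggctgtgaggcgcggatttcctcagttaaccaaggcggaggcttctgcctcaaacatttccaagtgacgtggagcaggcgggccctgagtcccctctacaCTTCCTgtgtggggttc
Zap70: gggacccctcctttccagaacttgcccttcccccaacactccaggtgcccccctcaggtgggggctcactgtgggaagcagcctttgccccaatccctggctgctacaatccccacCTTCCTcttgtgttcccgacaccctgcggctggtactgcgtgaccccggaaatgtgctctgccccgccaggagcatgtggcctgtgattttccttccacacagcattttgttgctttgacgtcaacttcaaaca
Sit1: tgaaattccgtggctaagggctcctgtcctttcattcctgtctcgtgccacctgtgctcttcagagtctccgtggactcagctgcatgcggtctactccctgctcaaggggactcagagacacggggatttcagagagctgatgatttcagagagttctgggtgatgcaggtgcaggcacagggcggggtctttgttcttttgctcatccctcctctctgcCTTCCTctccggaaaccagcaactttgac

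Over all members RefSeq gave 12 starts. The ETS core, searched on both strands, was present in 10 of the 12 windows, against 29.5% of 32851 mouse promoter windows of the same length. The windows without it were those of Cd3g and of the third Zap70 start. The RUNX core TGTGGT was found in 2 of the 12, against 14.0% of all windows, and the GATA core AGATAA in 2 of the 12, against 10.0%. The Cd3g window holds no ETS core but does hold the GATA core, as the Lcp2 window holds both. These motifs were picked with the expression results known, the ETS and GATA cores can overlap by the letters AG, and a match describes the sequence only.

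In spleen all 9 genes were higher in every Norad-/- mouse than in any Norad+/+ mouse, a separation shown by 11.6% of the 12397 genes tested. The median log2 fold change (Norad-/- over Norad+/+, on log2 of FPKM plus 0.1) was 0.66 for the 9 genes against -0.02 over all genes tested. At an unadjusted limma p under 0.05, 8 of the 9 were higher, against 7.42% of all genes, and 0 were lower, against 13.6%. After Benjamini-Hochberg adjustment over all genes, limma called 0 of the 9, with adjusted p from 0.092 to 0.296, and 0.0323% of all genes, which is 4 genes. With 3 mice against 3, complete separation of 1 gene gives an exact two-sided permutation p of 0.1, the smallest this design allows.

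**Figure D1:**
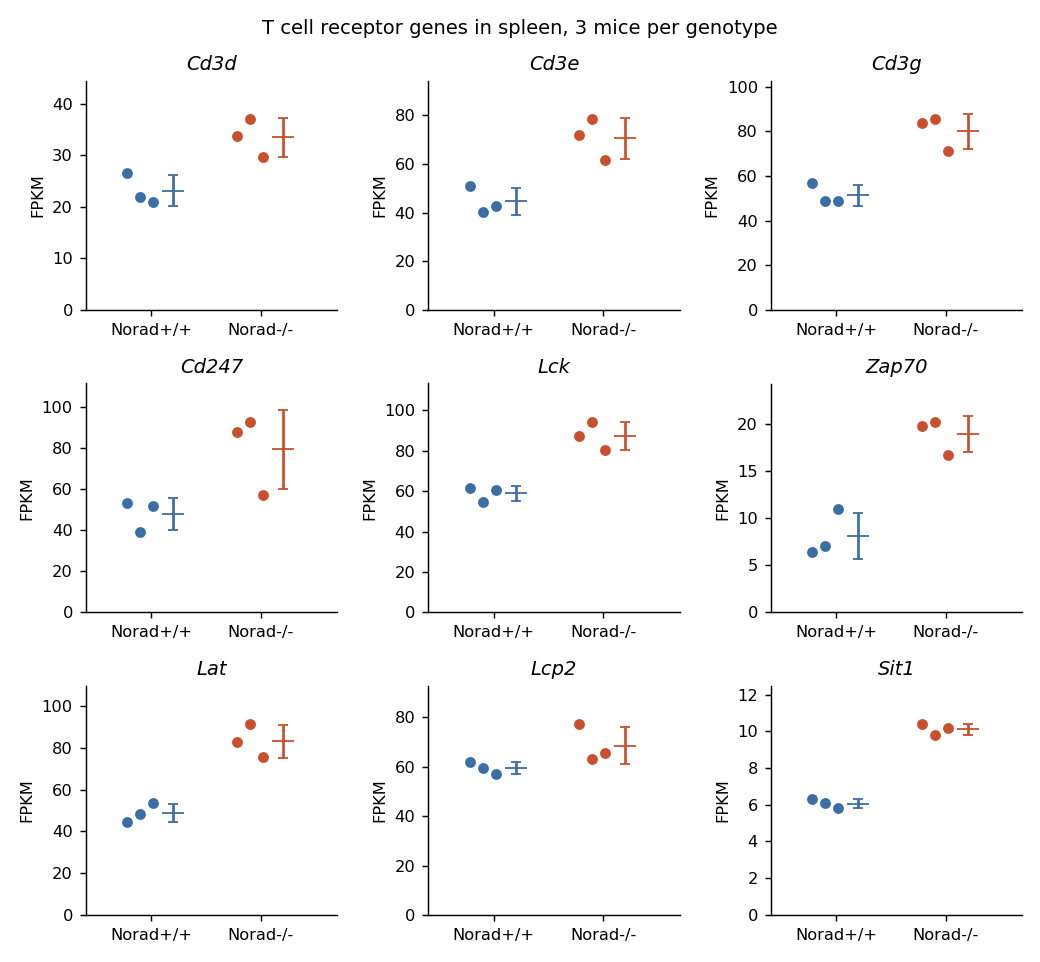
FPKM of the 9 genes in spleen, 1 panel per gene with its own axis from 0, 3 Norad+/+ mice in blue and 3 Norad-/- mice in orange, with the mean and SD beside the points. The groups are separate in all 9 panels, and in proportion the means differ most for Zap70 (8.16 and 19.0 FPKM) and least for Lcp2 (59.5 and 68.6 FPKM).

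The 4 receptor chains were all higher in Norad-/- spleen, by log2 fold changes from 0.53 to 0.71. Cd3e, the epsilon chain that pairs with both delta and gamma, measured 51.0, 40.3 and 42.9 FPKM in the Norad+/+ spleens and 71.8, 78.4 and 61.6 in the Norad-/- spleens. Its means of 44.8 ± 5.55 and 70.6 ± 8.46 (SD, n = 3) differed by a log2 fold change of 0.66 (SE 0.13, 95% interval 0.34 to 0.97). Every knockout spleen was above every wild-type spleen, with Norad+/+ spleen 1 the highest of its group, and limma gave an adjusted p of 0.141.

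Cd3g, the gamma chain, had 56.7, 48.7 and 48.6 FPKM in Norad+/+ and 83.7, 85.4 and 71.0 in Norad-/- spleen (means 51.3 ± 4.62 and 80.0 ± 7.86). Its log2 fold change of 0.64 (SE 0.11) was close to that of Cd3e, and the same library, Norad-/- spleen 3, was the lowest of the knockouts (limma adjusted p = 0.138). Cd3d, the delta chain, lay at 26.5, 21.9 and 20.9 against 33.8, 37.0 and 29.6 FPKM (means 23.1 ± 2.97 and 33.4 ± 3.71), with a log2 fold change of 0.53 (SE 0.13, limma adjusted p = 0.157). Its level per length was below those of its 2 neighbours in all 6 spleens.

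Cd247, the zeta chain, was the least even of the chains. The wild-type spleens had 53.3, 39.0 and 51.7 FPKM and the knockout spleens 87.9, 93.0 and 57.4, so that Norad-/- spleen 3 stood just above the highest wild type. The means were 48.0 ± 7.81 and 79.4 ± 19.2, and the log2 fold change of 0.71 had a 95% interval of 0.18 to 1.24 (SE 0.22, limma adjusted p = 0.187). Cd247 (ENSMUSG00000005763, chr1:165788681-165877277, plus strand) overlaps Pou2f1 on the other strand, which shares 3007 of the 5329 exonic bases of Cd247. The library kit keeps strand, but whether the FPKM step used it was not given in the sources used here. Pou2f1 itself measured 8.59 ± 1.94 FPKM in Norad+/+ and 9.24 ± 1.18 in Norad-/- spleen (log2 fold change 0.12, limma adjusted p = 0.744).

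The kinases differed more from each other. Lck (ENSMUSG00000000409, chr4:129548344-129573641, minus strand) was measured at 61.6, 54.9 and 60.6 FPKM in Norad+/+ and 87.5, 94.5 and 80.5 in Norad-/- spleen. Its groups were tight and far apart (59.0 ± 3.65 and 87.5 ± 6.96), with a log2 fold change of 0.57 (SE 0.09, limma adjusted p = 0.138). Zap70 (ENSMUSG00000026117, chr1:36761798-36782818, plus strand) was low in the wild type, at 6.41, 7.10 and 10.95 FPKM, and reached 19.9, 20.3 and 16.8 FPKM in the knockout. Here the wild-type mice were the more scattered group, and the lowest knockout was still 1.5 times the highest wild type. The means of 8.16 ± 2.45 and 19.0 ± 1.93 are a ratio of 2.33, and the log2 fold change of 1.24 (SE 0.21, 95% interval 0.73 to 1.75, limma adjusted p = 0.138) was the largest among the 9 genes.

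Among the adaptors, Lat (ENSMUSG00000030742, chr7:126363824-126369570, minus strand) measured 44.6, 48.5 and 53.5 FPKM in Norad+/+ and 82.5, 91.3 and 75.4 in Norad-/- spleen. The gap between the groups was wider than either group, and the log2 fold change was 0.76 (SE 0.11, means 48.8 ± 4.44 and 83.1 ± 7.98, limma adjusted p = 0.129). Sit1 (ENSMUSG00000028460, chr4:43482081-43483734, minus strand) was the lowest in level and the most even, at 6.29, 6.11 and 5.80 against 10.4, 9.80 and 10.2 FPKM. Its log2 fold change of 0.73 (SE 0.08, 95% interval 0.54 to 0.92) had the smallest p of the 9 and ranked 6 among all 12397 genes, with a limma adjusted p of 0.092.

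Lcp2 (ENSMUSG00000002699, chr11:34046920-34092295, plus strand) was the exception in size. It measured 61.9, 59.4 and 57.2 FPKM in Norad+/+ and 77.3, 63.0 and 65.5 in Norad-/- spleen, so that the lowest knockout and the highest wild type were almost equal. The log2 fold change was 0.20 (SE 0.10), and its 95% interval of -0.04 to 0.44 includes 0 (limma adjusted p = 0.296). The value was 0.11 without Norad-/- spleen 1, 0.04 relative to B cell markers and 0.32 with TPM. Lcp2 lies within the span of 4930469K13Rik on the opposite strand, which has no FPKM value here.

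**Figure D2:**
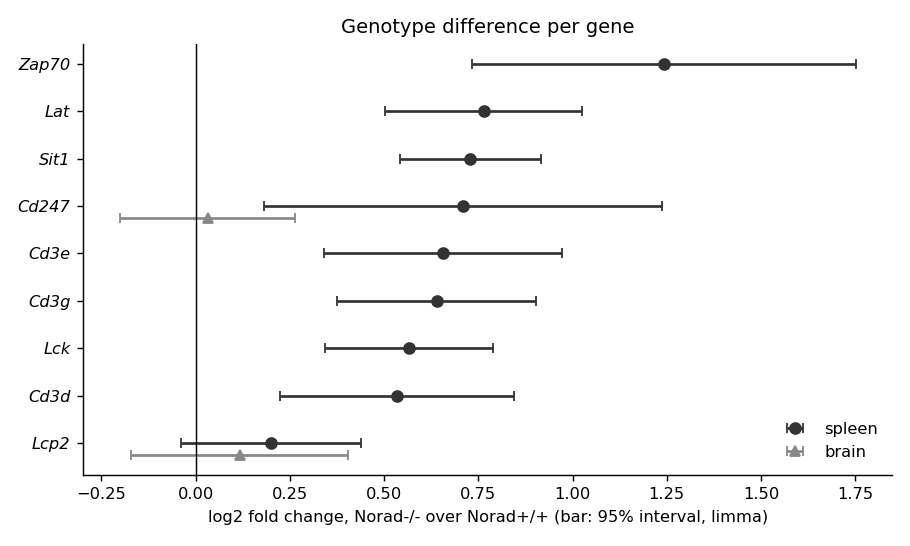
Log2 fold change of each gene, Norad-/- over Norad+/+, with its 95% interval from limma, in spleen (circles) and, for the 2 genes above the level filter there, in brain (triangles). In spleen 8 of the 9 intervals lie above 0, from Cd3d at 0.53 to Zap70 at 1.24, and that of Lcp2 (0.20) includes 0, as do both brain intervals.

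The 9 genes followed each other closely. Over the 6 spleens the Pearson r of log2 values between members ranged from 0.614 to 0.992 over 36 pairs, with a median of 0.904, and the lowest were pairs with Lcp2. These values share libraries and contain the genotype difference. With the group means removed, the r of the same pairs ran from -0.82 to 0.962 with a median of 0.321. The mean of the 9 centred log2 values was -0.29, -0.43 and -0.29 in Norad+/+ spleens 1 to 3 and 0.40, 0.43 and 0.18 in Norad-/- spleens 1 to 3.

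Dividing by Cd3e within each library sets the level of each gene against that of a CD3 chain. Cd3g kept a ratio of 1.15 ± 0.0503 to Cd3e in Norad+/+ and 1.14 ± 0.0411 in Norad-/- spleen, and the ratios of Cd247, Lck, Lat and Sit1 overlapped between genotypes. Zap70 was higher against Cd3e, at 0.126, 0.176 and 0.255 in Norad+/+ and 0.277, 0.259 and 0.272 in Norad-/- spleen. The knockout ratios are nearly equal, and the wild-type ratios are scattered. Lcp2 was lower against Cd3e, at 1.21, 1.47 and 1.33 times Cd3e in the wild type and 1.08, 0.804 and 1.06 in the knockout. Cd3d differed slightly in the same direction, at 0.516 ± 0.0276 and 0.474 ± 0.0052. For these 3 genes the ratios did not overlap, which gives an exact permutation p of 0.1 (0.267 after adjustment over the 8 ratios). That is the smallest p possible here, so no ratio could pass 0.05 in either direction. Overlap in the other genes does not show that their ratios were equal.

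**Figure D3:**
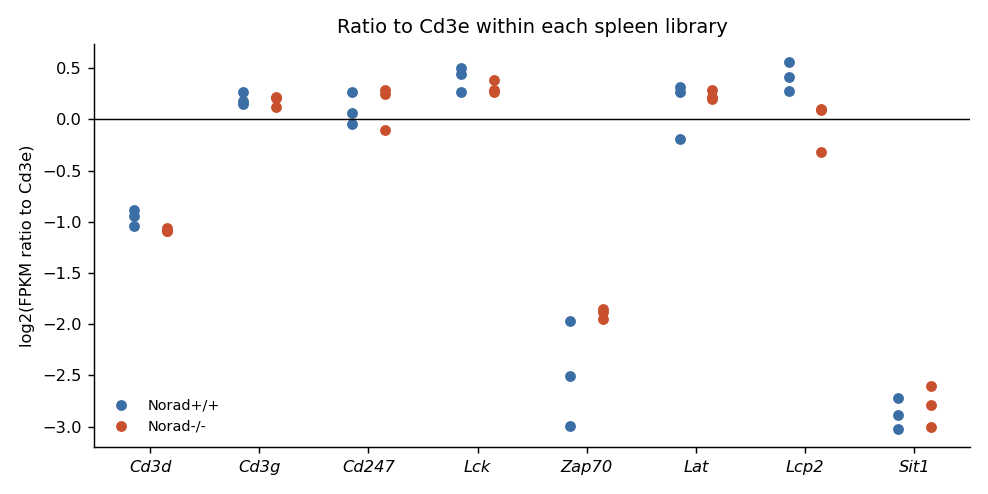
Log2 of the FPKM ratio of each gene to Cd3e within the same spleen library, Norad+/+ in blue and Norad-/- in orange, 1 point per mouse, with the line at a ratio of 1. The groups are separate for Zap70 (higher in Norad-/-), Lcp2 and Cd3d (lower) and overlap for the other 5.

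The rest of the pathway was described with 4 lists of 58 genes, all of which could be tested in spleen. Of these, 52 had a log2 fold change above 0, with a median of 0.31. At an unadjusted limma p under 0.05, 24 were higher and 1 was lower, where the shares over all genes were 7.42% and 13.6%. Wipf1 was the only pathway gene past the adjusted threshold. Groups did not overlap for 27 genes that were higher and for 1 that was lower, where the shares over all genes were 11.6% and 14.9%.

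The surface receptors that act beside the T cell receptor had the differences nearest to those of the 9 genes. All 10 had values above 0, with a median log2 fold change of 0.58. At an unadjusted limma p under 0.05, 9 were higher, against 7.42% of all genes, and 8 had separate groups, against 11.6%. Cd27, a costimulatory receptor, went from 33.2 ± 3.02 to 59.4 ± 7.50 FPKM (log2 fold change 0.83, limma adjusted p = 0.129). Cd4 and Cd8a, the coreceptors of helper and cytotoxic T cells, were both higher, Cd4 from 44.4 ± 5.75 to 69.8 ± 5.43 FPKM (0.66, limma adjusted p = 0.141) and Cd8a from 31.9 ± 3.13 to 46.1 ± 3.73 FPKM (0.53, limma adjusted p = 0.141). The activation-linked receptors Ctla4 and Icos had log2 fold changes of 0.73 (limma adjusted p = 0.215) and 0.42 (limma adjusted p = 0.28), with overlapping groups.

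Among 10 other kinases and phosphatases that act at the receptor, 9 had values above 0, and the median was 0.22. At an unadjusted limma p under 0.05, 3 were higher, against 7.42% of all genes, and 1 was lower, against 13.6%. Ubash3a and Ubash3b encode related negative regulators of receptor signalling and had opposite signs. Ubash3a, the family member of lymphocytes, had a log2 fold change of 0.47 (limma adjusted p = 0.141), and the more broadly expressed Ubash3b one of -0.26, from 9.38 ± 0.80 to 7.77 ± 0.118 FPKM (limma adjusted p = 0.196). Fyn, the second Src family kinase of T cells, had 0.26.

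Of 14 other adaptors 12 were above 0, with a median of 0.25. At an unadjusted limma p under 0.05, 6 were higher, against 7.42% of all genes, and 0 were lower, against 13.6%. Trat1, a transmembrane adaptor that associates with the receptor, measured 3.63 ± 0.634 in Norad+/+ and 6.62 ± 0.676 FPKM in Norad-/- spleen (log2 fold change 0.86, limma adjusted p = 0.138). Lax1, a relative of Lat that limits lymphocyte signalling, had 0.47, and Sh2d1a, the adaptor SAP, 0.31. The general adaptors Grb2, Nck1 and Nck2, used by most cells, had 0.05, -0.03 and 0.02.

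The 24 downstream effectors had the lowest median, 0.15, with 21 above 0. Of these 24, 6 were higher at an unadjusted limma p under 0.05, against 7.42% of all genes. Wipf1, which stabilises the Wiskott-Aldrich syndrome protein and links the receptor to actin, went from 65.5 ± 2.12 to 117 ± 3.74 FPKM (log2 fold change 0.84, SE 0.07, limma adjusted p = 0.0469). Its partner Was had -0.01. The 4 genes called in spleen became 2 without a filter, with TPM or with quantile normalization. Whether Wipf1 stayed among them is not reported here. Nfatc2, a calcium-regulated transcription factor, went from 4.61 ± 0.204 to 8.70 ± 1.44 FPKM (0.89, limma adjusted p = 0.129). Dgka, a diacylglycerol kinase that curbs Ras signalling in T cells, had 0.58, while the calcineurin subunits Ppp3ca, Ppp3cb and Ppp3r1 had 0.10, -0.08 and 0.05.

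Genes whose spleen pattern was among the most like the mean of the 9, by Pearson r over the 6 libraries, were Klhl21 (0.995), H2-K1, Ell3 and Cog3 (0.993 each), Sesn1 (0.992), and Zbtb48 and Tmem108 (0.991 each). They span a wide range of levels, from a mean of 2.51 FPKM for Tmem108 to 1012 FPKM for H2-K1, a class I major histocompatibility gene of nearly all cells. Their log2 fold changes ran from 0.15 for Cog3 to 0.90 for Sesn1. The likeness contains the genotype difference and the order of the mice within each genotype.

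Markers of other spleen cells differed too. Their part in the result was not tested, beyond the refits relative to B cell markers and with a red cell precursor covariate given below. Over all genes tested in spleen, 13.6% were lower at an unadjusted limma p under 0.05 and 14.9% were lower with separate groups. All 11 red cell precursor markers were lower at an unadjusted limma p under 0.05 (median log2 fold change -3.94), although no gene of the list had separate groups, because Norad-/- spleen 3 overlapped the wild type. The 9 neutrophil markers were all below 0, with 4 lower at that threshold (median -1.97, summed 871 to 2484 FPKM in Norad+/+ and 169 to 1530 in Norad-/- spleen). Of the 9 macrophage markers, 7 were lower with separate groups (median -0.52, summed 1060 to 1293 against 744 to 968 FPKM). The 7 platelet markers were below 0 in full, with 2 at that threshold (median -0.89, summed 159 to 297 against 68.9 to 206 FPKM).

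Markers of B and NK cells had smaller median differences than the 9 genes. Over all genes tested in spleen, 7.42% were higher and 13.6% lower at an unadjusted limma p under 0.05. The 10 B cell markers summed to 1852 to 2333 FPKM in Norad+/+ and 2126 to 2388 in Norad-/- spleen, with a median log2 fold change of 0.15 and 2 higher at an unadjusted limma p under 0.05. The 9 NK cell markers summed to 164 to 177 against 159 to 182 FPKM, with a median of 0.06, 0 higher and 2 lower, Klrb1c (-0.96) and Gzma (-0.30). Neuron markers summed to at most 18.4 FPKM in spleen and pituitary markers to at most 2.36. Genes that also mark microglia, of which spleen macrophages express several, summed to 72.6 to 88.3 against 83.9 to 93.4 FPKM, with 1 higher and 1 lower at that threshold.

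Set against B cells within the same library, the receptor genes were again higher in Norad-/- spleen. The sum of Cd3d, Cd3e, Cd3g and Cd247 was 0.0803, 0.0797 and 0.0886 of the B cell marker sum in Norad+/+ and 0.117, 0.123 and 0.103 in Norad-/- spleen. The ratio of the B cell receptor chain Cd79a to Cd3e was 8.25, 8.06 and 8.38 in Norad+/+ and 5.73, 5.71 and 5.79 in Norad-/- spleen, without overlap (exact permutation p = 0.1, the smallest possible). With every gene taken relative to the B cell markers, the median log2 fold change of the 9 genes was 0.50 while that of all genes was -0.18. The limma adjusted p of the 9 then ran from 0.351 to 0.905, and 8 of the 9 remained at an unadjusted limma p under 0.05. An alternative added once the values were known, with the red cell precursor level as a covariate, gave a median of 0.41 and left 6 of the 9 at that threshold. Under it the receptor chains had 0.22 (Cd247), 0.27 (Cd3d), 0.38 (Cd3e) and 0.41 (Cd3g), and Lck and Lcp2 had 0.42 and 0.13. Zap70, Lat and Sit1 had 1.21, 0.67 and 0.72, and the limma adjusted p of the 9 ran from 0.574 to 0.968. For both refits the share of all genes at an unadjusted limma p under 0.05 was not counted.

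**Figure D4:**
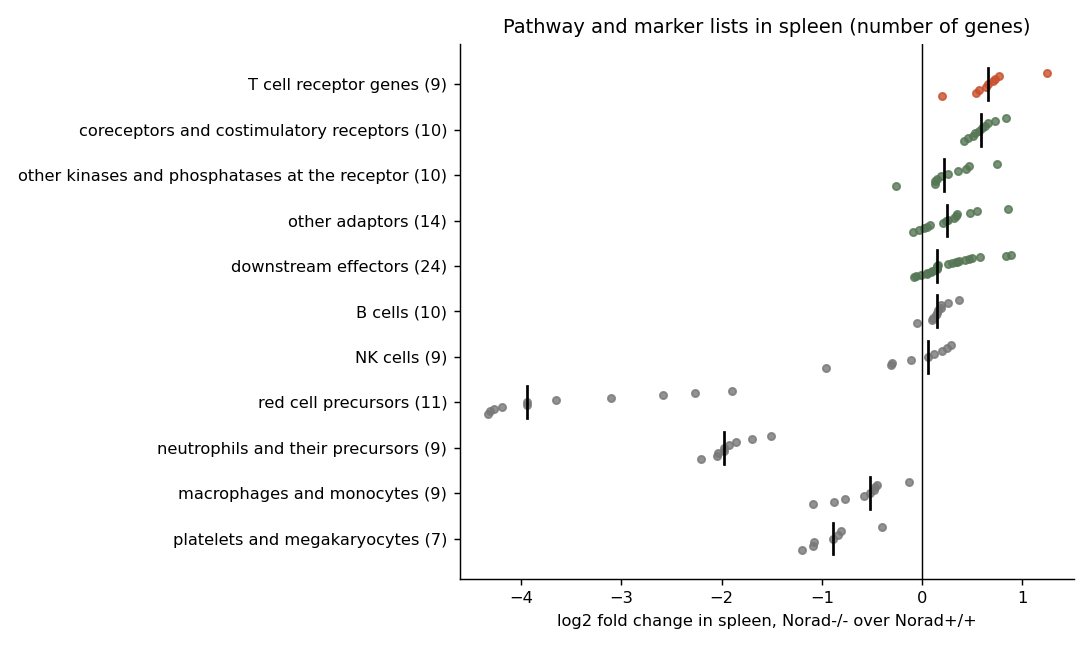
Log2 fold change in spleen, Norad-/- over Norad+/+, 1 point per tested gene, for the 9 T cell receptor genes (orange), 4 pathway lists (green) and 6 marker lists (grey), with a bar at the median and the number of genes in brackets. The medians fall from 0.66 for the 9 genes through 0.58 for coreceptors and 0.15 for downstream effectors to -3.94 for red cell precursors.

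Leaving out either spleen library that stood apart left 8 of the 9 genes at an unadjusted limma p under 0.05. The share of all genes at that p was counted only in the main fit, at 7.42% higher and 13.6% lower. The median log2 fold change of the 9 genes was 0.63 without Norad+/+ spleen 3, the library with pancreas transcripts. It was 0.73 without Norad-/- spleen 3, the knockout whose summed red cell precursor markers lay within the wild-type range. Without the latter the number of genes called in the whole spleen table went from 4 to 93, and that of the 9 called was still 0, with the smallest adjusted p at 0.0559 for Sit1.

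The levels followed different orders in the tissues. In Norad+/+ spleen Lcp2 (59.5 FPKM) and Lck (59.0) were highest, followed by Cd3g (51.3), Lat (48.8), Cd247 (48.0) and Cd3e (44.8), with Cd3d (23.1), Zap70 (8.16) and Sit1 (6.06) below. From Lcp2 to Cd3e the ranges of neighbours in this order overlapped. The steps from Cd3e to Cd3d and from Cd3d to Zap70 were wider than the spread, and the ranges of Zap70 (6.41 to 10.95) and Sit1 (5.80 to 6.29) did not overlap although their means were close. In brain Cd247 was the highest, and 7 of the 9 genes were under the mean of 1 FPKM required for testing.

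**Figure D5:**
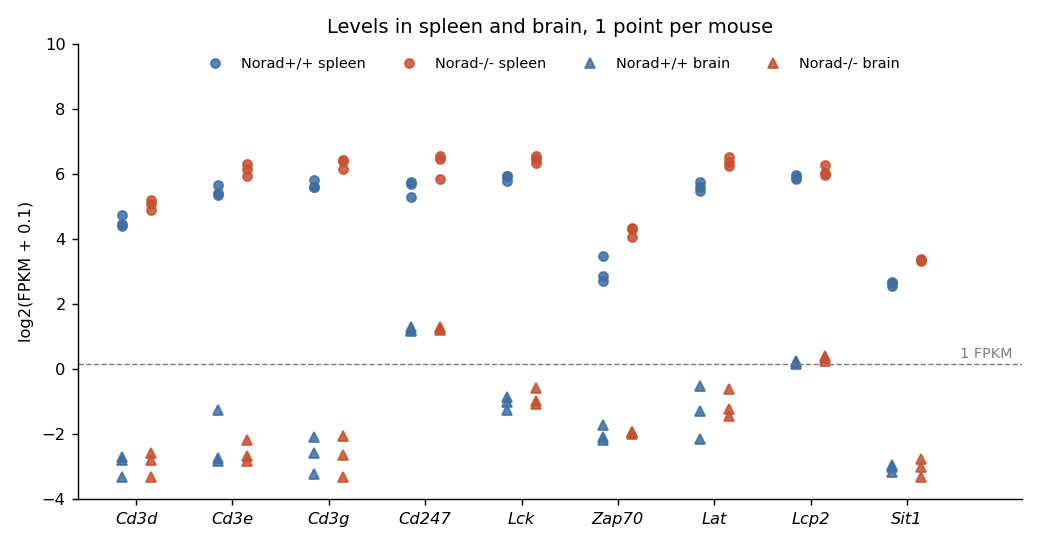
Level of each gene in all 12 libraries as log2(FPKM + 0.1), spleen as circles and brain as triangles, Norad+/+ in blue and Norad-/- in orange, with a dashed line at 1 FPKM. All spleen points lie above the line, and in brain those of Cd247 (means 2.23 and 2.28 FPKM) and Lcp2 (1.05 and 1.15 FPKM) lie at or above it.

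The CD3 genes were near the level of a few reads in brain. Cd3g averaged 0.0687 FPKM and Cd3d 0.0315 FPKM in Norad+/+ brain, where 1 read on 1 kb of transcript is worth 0.0273 to 0.0351 FPKM, and spleen was 747 and 733 times higher. Cd3e averaged 0.134 FPKM in Norad+/+ brain, most of it from library 2 at 0.313 FPKM, and 0.0729 in Norad-/- brain. Cd247 stood above the other chains, with 2.14, 2.33 and 2.21 FPKM in Norad+/+ and 2.28, 2.35 and 2.21 in Norad-/- brain. Its brain level was 4.64% of its spleen level, against 0.134% for Cd3g, and Pou2f1 on the opposite strand had 3.62 ± 0.615 FPKM in Norad+/+ brain. Which of the overlapping genes these reads come from was not tested.

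The signalling genes were low in brain with overlapping groups. Lcp2 measured 1.05, 1.09 and 1.01 FPKM in Norad+/+ and 1.21, 1.08 and 1.17 in Norad-/- brain. Lck averaged 0.385 and 0.446 FPKM in the 2 genotypes, Lat 0.344 and 0.382, Zap70 0.152 and 0.156, and Sit1 0.0214 and 0.0242. The 2 testable genes gave log2 fold changes of 0.03 (95% interval -0.20 to 0.26, limma adjusted p = 0.928) for Cd247 and 0.12 (-0.17 to 0.41, limma adjusted p = 0.791) for Lcp2. In brain the groups of all 9 overlapped. Of the 2 that could be tested, 0 were higher without overlap, against 10.6% of the 13051 genes tested. Of the same 2, 0 had an unadjusted limma p under 0.05, against 6.62% of genes, or an adjusted one, against 0.0153% (2 genes). The brain interval of Cd247 excludes its spleen value of 0.71 and that of Lcp2 includes its spleen value of 0.20, and the difference between tissues itself was not tested.

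Of the 58 pathway genes 35 could be tested in brain, where 18 were above 0 and the median log2 fold change was 0.01. At an unadjusted limma p under 0.05, 0 were higher and 1 was lower, against 6.62% of all genes in either direction. The 1 was Nfatc2, from 3.27 to 1.75 FPKM (-0.86, limma adjusted p = 0.455), a gene that was higher in the Norad-/- spleens. Cd4, which microglia and neurons can transcribe at low level, had 3.02 and 3.37 FPKM. Microglial markers summed to 47.2 to 66.5 FPKM in Norad+/+ and 65.9 to 73.3 in Norad-/- brain. B cell markers summed to 7.18 FPKM in Norad+/+ brain 2 and 5.12 in Norad-/- brain 1, against 1.52 to 2.14 in the other brains.

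No member carries the perfect PUMILIO response element UGUANAUA in its longest annotated 3′ UTR, an element that 25.9% of spleen-tested genes with a 3′ UTR carry. Only the UTRs of Cd247 (2188 bases) and Lcp2 (1608 bases) are longer than the median of 1157 over all. Those of the other members are 225 to 995 bases long, and the shares were not matched for length. The relaxed form UGUANAUN, which includes the perfect one, was found in Cd3g and Lck, that is 2 of 9 genes against 47.3%. The sites are printed below as DNA with the element in capitals, as the matches found in the 9 UTRs searched, at chr9:44969592-44969615 for Cd3g and chr4:129548677-129548700 and chr4:129548344-129548360 for Lck, all on the minus strand of GRCm38.
Cd3g site: gggaaaatTGTAAATGacaaaatt
Lck site 1: tctgactcTGTACATGaaacctgt
Lck site 2: attaaggtTGTACATTt
The fold changes of Cd3g (0.64) and Lck (0.57) lay inside the range of the 7 genes without a relaxed element (0.20 to 1.24).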

How the data were processed

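Spleen and brain RNA of 12 mouse samples was analysed. Per gene and library the authors deposited FPKM values, from reads that TopHat2 2.0.12 had placed uniquely on GRCm38. The submitters' processing notes also name StringTie 1.2.2. The gene annotation behind the FPKM values and the use of strand in that step were not given in the sources used here. Library depth is an estimate from the smallest steps in the FPKM values, so low values rest on few reads, and 0 value columns belonged to no sample.

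The scale was log2 of FPKM with a pseudocount of 0.1, on which fold changes of the lowest genes come out too small. In each tissue limma 3.58.1 (R 4.3.3) was run with a mean-variance trend on the genes averaging 1 FPKM or more across its 6 libraries, and p was adjusted by Benjamini-Hochberg at 0.05. Ratios of 3 against 3 libraries were compared by exact two-sided permutation. P-values measure the spread between these mice. The tables of spleen and brain were set side by side with no test. The fit was tested on simulated data.

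The 9 members, 4 pathway lists, 10 marker lists and the motifs were chosen with earlier results of these data known. Named genes are the members, up to 3 genes per pathway list and direction with the smallest spleen p, the 8 genes most like the members, and any list gene past the threshold. Some genes that this rule names are not reported here. Was, Grb2, Nck1, Nck2, the calcineurin subunits, Ctla4, Icos, Nfatc2 and Cd4 in brain, and the named NK markers were added after their values were seen. Of 24062 symbols 22709 matched 1 gene of GENCODE M21. Promoters are RefSeq sequences, and all 9 members matched by symbol.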

Additional observations from a re-analysis of the deposited data

How the results depend on the processing

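All 9 members kept a positive log2 fold change in spleen, and 0 were called, under each of the 17 alternatives (a changed pseudocount, filter, scaling or variance model, a replicate block, each library left out, values relative to B cell markers, and a red cell precursor covariate chosen after seeing the data). The 181 alternative values of single members in both tissues include 0 that changed direction or side of the threshold. The median log2 fold change of the members was 0.66 and became 0.78 with TPM, 0.50 relative to B cell markers and 0.41 with the covariate, and ranged from 0.58 to 0.73 over left-out libraries. With TPM the median over all genes was 0.10 in place of -0.02. The number of members at an unadjusted limma p under 0.05 was 8, and 7 without Norad+/+ spleen 2, Norad-/- spleen 1 or Norad-/- spleen 2. The share of all genes at that p was not counted for the alternatives. Genes called in spleen numbered 4, against 2 without a filter, with TPM or with quantile normalization, 1 relative to B cell markers or with the covariate, and 2 to 93 over left-out libraries, 93 being without Norad-/- spleen 3 and 20 without Norad+/+ spleen 1. Genes called in brain numbered 2, against 1 to 15 over left-out libraries, 15 being without Norad+/+ brain 3 and 9 without Norad+/+ brain 2. The cause was not tested. At a mean of at least 5 FPKM no member could be tested in brain.

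Whether replicate numbers pair the samples was not given in the sources used here, and the correlations between samples do not settle it. Deviations of same-numbered spleens correlated at 0.34, -0.15 and 0.29, and of brains at 0.06, 0.07 and 0.11, and every sample correlated best with its own number in brain but not in spleen. With a replicate block, 1 gene was called in spleen and 1 in brain, and the members' adjusted limma p in spleen ran from 0.0617 to 0.266.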
